A study of Mus musculus with 10 samples.

Results

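The genes described are 10 regulators of hair growth and of hedgehog and WNT signalling in skin: the ligands Shh and Wnt10b, the receptor Ptch1, and the transcription factors Gli1, Lef1, Msx1, Msx2, Foxn1, Hoxc13 and Dlx3. They were picked by symbol, and all 10 were found among the 55487 gene identifiers of each deposited table. Of these, 9 passed the filter on low counts and were tested, and Shh did not. Whole skin of 5 wild type mice (WT) and 5 mice carrying the genotype written as "5 Hamp1-KI ker" (KI) was profiled by RNA sequencing, 1 library per mouse. Hamp encodes hepcidin, the peptide hormone that restrains iron export, and the series asks what its overexpression in skin does to gene expression. The labels give tissue and genotype, with no age, sex, promoter or hair cycle stage, they do not spell out "ker" or the leading 5, and they name no allele or agent that both groups share. Each title starts with EAS37 (3 WT and 2 KI mice) or EAS42 (2 WT and 3 KI mice), and the labels do not say what these prefixes stand for. WT 1 to 3 and KI 1 and 2 are EAS37, and WT 4 and 5 and KI 3 to 5 are EAS42.

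Hair follicles grow, regress and rest in cycles, and each growth phase is driven by an exchange of signals between the dermal papilla and the epithelium around it. WNT ligands such as WNT10B stabilise beta-catenin, which acts on genes together with LEF1. Sonic hedgehog, the product of Shh, binds the receptor PTCH1, which releases Smoothened and activates GLI factors, and both Gli1 and Ptch1 are themselves transcribed in response, so that their RNA is widely read as a measure of the pathway. MSX1, MSX2, DLX3, HOXC13 and FOXN1 act in the hair matrix and its descendants, where they direct shaft differentiation and hair keratin genes.

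Of the 4 genes that differed between the genotypes (below), Lef1, Msx1 and Ptch1 have an entry in RefSeq's table of promoters (build GRCm38.p6), as do Foxn1, Msx2 and Wnt10b. The 250 bases before the annotated start are shown for those 3 because they moved in the same direction. Each is written 5′ to 3′ on the gene's own strand, and capitals mark a match to GACGC, the core that FOXN1 binds, on either strand. The Lef1 stretch is chr3:131110047-131110296 on the plus strand, in an exon of the antisense gene Gm43352. The Msx1 stretch is chr5:37824586-37824835 on the minus strand, outside any gene of GENCODE M21. The Ptch1 stretch is chr13:63565736-63565985 on the minus strand, inside the span of Ptch1 but in none of its exons.
Lef1: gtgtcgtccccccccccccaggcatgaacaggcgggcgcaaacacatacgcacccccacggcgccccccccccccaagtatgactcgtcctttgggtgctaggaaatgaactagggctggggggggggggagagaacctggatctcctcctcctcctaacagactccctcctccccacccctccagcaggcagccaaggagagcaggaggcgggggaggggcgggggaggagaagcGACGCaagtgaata
Msx1: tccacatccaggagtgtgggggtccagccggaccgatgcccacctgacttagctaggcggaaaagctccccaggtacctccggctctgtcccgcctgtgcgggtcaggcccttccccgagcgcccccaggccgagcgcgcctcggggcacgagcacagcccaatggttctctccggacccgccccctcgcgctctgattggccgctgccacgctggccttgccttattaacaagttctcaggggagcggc
Ptch1: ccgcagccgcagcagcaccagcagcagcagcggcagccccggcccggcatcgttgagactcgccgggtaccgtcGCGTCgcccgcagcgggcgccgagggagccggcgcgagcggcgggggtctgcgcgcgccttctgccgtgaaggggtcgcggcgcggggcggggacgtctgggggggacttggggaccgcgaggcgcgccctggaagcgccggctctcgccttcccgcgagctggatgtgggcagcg

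Exact matches on both strands were sought in the whole table window, 250 bases before to 50 after the start, for 8 motifs. CTTTGAA and likewise CTTTGAT stand for TCF/LEF factors. The letters CCACCCA stand for GLI factors, and so does the longer GACCACCCA, which contains them. The letters TAATTG are bound by MSX and DLX type homeobox proteins, CTCGTAAA by the HOX13 type, GACGC by FOXN1, and TATAAA is the TATA box. GACGC was found in windows of Lef1, Msx2, Ptch1 and Wnt10b, 4 of the 6 genes with an entry. Lef1 has 4 windows and each of the others has 1, and counted by window 5 of 9 hold the letters, where 27.2% of all 32851 windows do. Windows 1 and 2 of Lef1 overlap (chr3:131110047-131110346 and chr3:131110073-131110372) and hold the same match, so 1 site is counted in both. Over all windows the shares were 5.14% for CTTTGAA, 3.73% for CTTTGAT, 9.3% for CCACCCA, 0.253% for GACCACCCA, 8% for TAATTG and 0.131% for CTCGTAAA, and none of these letters occurs in a window of the 6 genes. TATAAA, held by 13.6% of windows, occurs once, in the last of the 4 Lef1 windows. Foxn1 and Msx1 have no match to any of the motifs.

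Libraries held 18.96 to 26.43 M expected counts. Hamp stood at 1.86 to 3.33 CPM (counts scaled to TMM library sizes) in WT and 85.6 to 169 CPM in KI, so the levels go with the labels. The tissue label was met by keratinocyte markers: Krt5 ran from 4553 to 7384 CPM over all libraries and Krt14 from 1927 to 12748 CPM. WT 2 stands apart in the hair genes. Its 25 measured genes of hair shaft and inner root sheath summed to 8219 CPM, against 68.8 to 1097 CPM in the other WT libraries and 38.5 to 1757 CPM in KI, so fold changes without it are also given for Foxn1, Hoxc13, Dlx3, Msx2 and Wnt10b.

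Lef1, Ptch1, Gli1 and Msx1 fell in KI skin, to between 0.324 and 0.525 of their WT mean, and none of the 9 tested genes rose. A gene is called here when its Benjamini-Hochberg adjusted p in edgeR's quasi-likelihood test is under 0.05 over all 17321 genes tested. Thus 4 of 9 were called lower, where 15.3% of all genes tested were called lower, and 0 of 9 were called higher, where 15.6% were; no log2 fold change of the 9 was above 0. In Lef1 and Ptch1 (2 of 9) every KI library lay below every WT library, as in 9.65% of all genes tested. The other 5, Msx2, Wnt10b, Dlx3, Foxn1 and Hoxc13, had lower KI means but did not pass the test. In whole tissue, fewer cells of a type and less RNA per cell cannot be told apart.

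The summed level of skeletal muscle markers ran lower in KI, with overlap: 20 of 20 were measured, 4 were called lower, where 15.3% of all genes tested were, and they summed to 33965 to 59662 CPM in WT and 3826 to 36879.9 CPM in KI. With the mean level of that list as a covariate in edgeR, 0 of the 9 genes were called, and over all genes 0.802% were called lower. Limma-voom with the same covariate also called 0 of the 9. The edgeR log2 fold changes with the covariate were -1.65 for Lef1 (adjusted p = 0.101), -1.08 for Msx1 (0.192), -0.84 for Ptch1 (0.16) and -0.81 for Gli1 (0.325). The direction was thus kept in all 4 genes while the calls were lost.

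**Figure D1:**
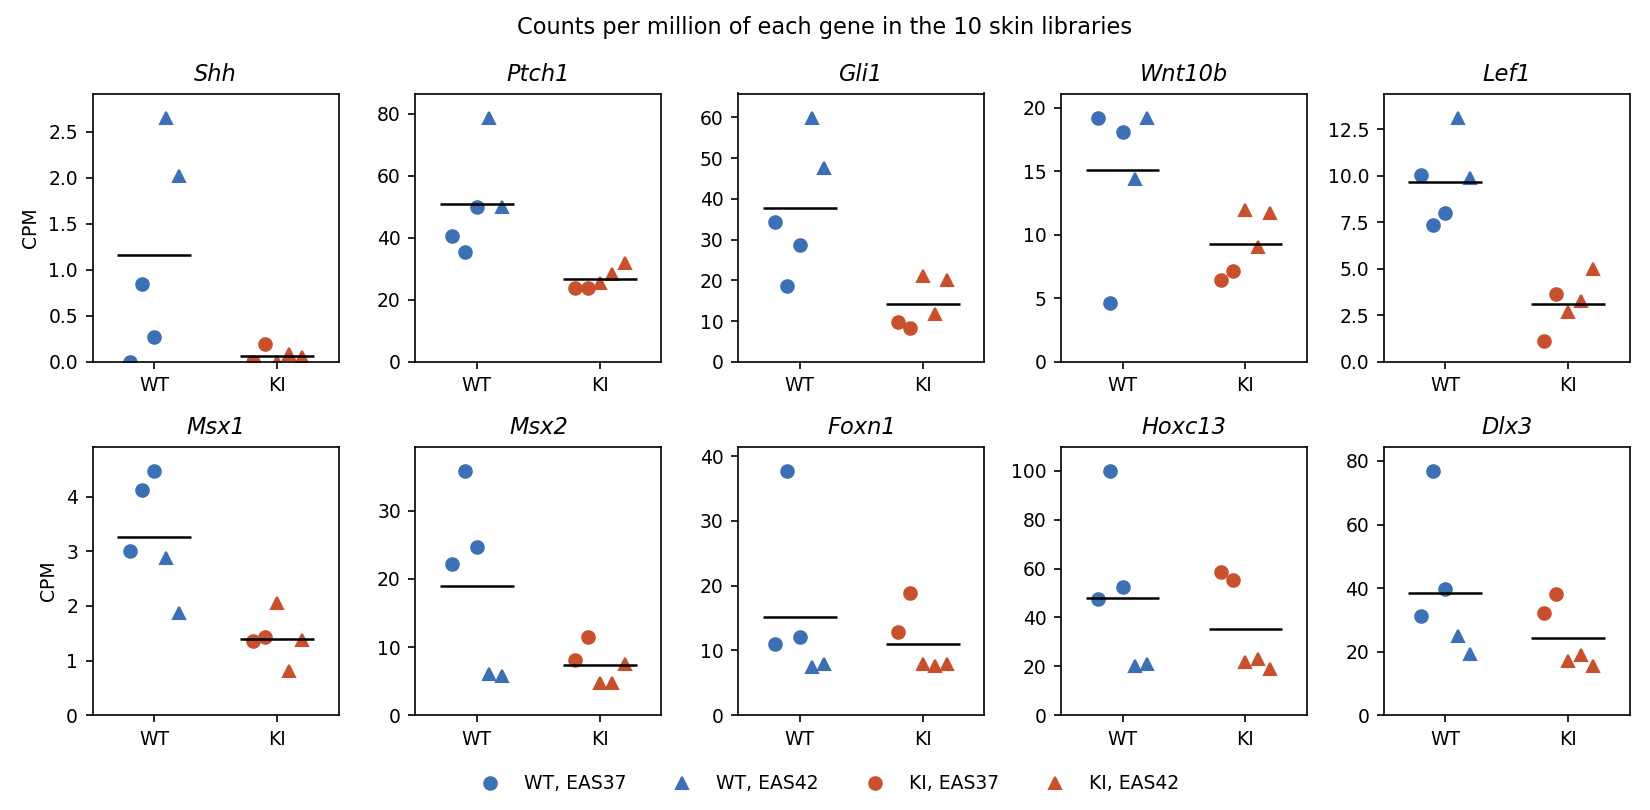
CPM (vertical axis, linear, from 0) of each of the 10 genes in every library, WT in blue and KI in red, circles for EAS37 and triangles for EAS42, with the mean of 5 libraries as a black bar. In Lef1 and Ptch1 the colours separate. In Hoxc13, Dlx3, Foxn1 and Msx2 the shapes do, in Hoxc13 with all circles at 47.4 CPM or more and all triangles at 22.9 CPM or less.

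Shh, the hedgehog ligand, had few reads in KI and uneven reads in WT. Its counts were 0, 16, 7, 70 and 44 in WT 1 to 5 and 0, 4, 0, 2 and 1 in KI 1 to 5. Most WT reads thus came from the EAS42 WT animals, WT 4 and WT 5, while WT 1 had none and overlapped KI. In the 3 libraries without a read, a count of 0 allows up to 0.132 CPM in WT 1, 0.151 CPM in KI 1 and 0.131 CPM in KI 3. Shh averaged 1.16 ± 1.14 CPM over the WT libraries and 0.0651 ± 0.0787 CPM over the KI libraries (SD, n = 5 each). The WT total of 137 counts was 18.2 times the KI total of 7 after scaling to library size (95% exact binomial interval 8.58 to 46.02, counting error only). The log2 CPM differed by -2.33 (exact two-sided permutation test, p = 0.0635), which does not pass the threshold, and without WT 1, which had no read, by -3.07 (exact p = 0.00794). Leaving out any other 1 library gave -2.57 to -1.84 with exact permutation p from 0.0635 to 0.111, none of which pass. With no filter on low counts, edgeR called Shh lower over 31097 genes (log2 fold change -4.05 ± 1.18 SE, adjusted p = 0.0454), and so did DESeq2 (-4.15, adjusted p = 0.00193). Both values rest on 7 KI counts.

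Ptch1, the receptor and a transcriptional target of the pathway, read 40.5, 35.3, 50.1, 78.7 and 49.98 CPM in WT 1 to 5. It read 23.9, 23.99, 25.5, 28.5 and 31.9 CPM in KI 1 to 5. The KI libraries lay within a narrow band below all WT libraries, and WT 4 was the highest. The gene lies at chr13:63508328-63573598 on the minus strand. Its mean went from 50.9 ± 16.8 CPM to 26.8 ± 3.44 CPM (SD, n = 5 each), and edgeR gave a log2 fold change of -0.93 ± 0.20 SE with an adjusted p of 0.00675.

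Gli1, the transcription factor whose RNA is the most used readout of hedgehog activity, read 34.4, 18.6, 28.8, 59.9 and 47.5 CPM in WT 1 to 5 and 9.74, 8.33, 21.2, 11.7 and 20.02 CPM in KI 1 to 5. Both groups overlap only through WT 2, which lay below KI 3 and KI 5. Within each prefix every KI library lay below every WT library. Its mean went from 37.8 ± 16.1 CPM to 14.2 ± 5.98 CPM (SD, n = 5 each), and edgeR gave a log2 fold change of -1.41 ± 0.36 SE with an adjusted p of 0.0158. Gli1 lies at chr10:127329882-127341974 on the minus strand and overlaps Arhgap9 on the plus strand, which held 2111 expected counts over the 10 libraries against 4485 for Gli1 in WT and 1526 in KI. The strand setting of the counting is not given in the sources used here, so a share of reads may belong to either gene.

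The log2 CPM of Gli1 minus that of Ptch1 was -0.48 ± 0.36 in WT (SD, n = 5), and the KI mean, with an SD of 0.52 (n = 5), differed from it by -0.52. This did not pass an exact two-sided permutation test (p = 0.111, adjusted over 3 pairs of genes p = 0.333), and the pair was not shown to fall by different amounts. The values of the 5 KI libraries, -1.52 to -0.27, and of the 5 WT libraries, -0.92 to -0.07, overlap.

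Wnt10b, the WNT ligand of the early hair germ and matrix, read 19.2, 4.66, 18.1, 14.4 and 19.2 CPM in WT 1 to 5 and 6.46, 7.19, 11.99, 9.06 and 11.7 CPM in KI 1 to 5. WT 2 was the lowest of all 10 libraries, and the other 4 WT libraries lay above all KI libraries. Means were 15.1 ± 6.15 CPM (WT) and 9.27 ± 2.52 CPM (KI; SD, n = 5 each), and the log2 fold change of -0.70 ± 0.34 (SE) did not pass (edgeR adjusted p = 0.139). Without WT 2 the log2 fold change was -0.93 and passed (edgeR adjusted p = 0.0079).

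Lef1, the partner of beta-catenin, read 10.02, 7.36, 8.02, 13.1 and 9.86 CPM in WT 1 to 5. It read 1.11, 3.62, 2.70, 3.26 and 4.97 CPM in KI 1 to 5. All WT libraries lay above all KI libraries, and KI 1 was the lowest. Its mean went from 9.67 ± 2.24 CPM to 3.13 ± 1.40 CPM (SD, n = 5 each), and edgeR gave a log2 fold change of -1.63 ± 0.32 SE with an adjusted p of 0.00495. T cells also transcribe Lef1. Of 15 T cell markers measured 10 rose, where 15.6% of all genes tested did, and 0 fell. Their summed level was 87.0 to 149 CPM in WT and 177 to 211 CPM in KI. The part of T cells in the Lef1 level was not tested. Lef1 lies at chr3:131110471-131224356 on the plus strand, and the antisense gene Gm43352 that overlaps it held 34 counts in all.

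Msx1 and Msx2 encode homeobox proteins of the hair matrix. Msx1 read 3.001, 4.13, 4.47, 2.88 and 1.88 CPM in WT 1 to 5 and 1.36, 1.43, 2.05, 0.804 and 1.37 CPM in KI 1 to 5. It lies at chr5:37820485-37824583 on the minus strand. It was a low gene, with 19 to 47 counts in KI libraries, and the groups overlap only in that KI 3 lay above WT 5. Its mean went from 3.27 ± 1.04 CPM to 1.40 ± 0.441 CPM (SD, n = 5 each), and edgeR gave a log2 fold change of -1.22 ± 0.29 SE with an adjusted p of 0.0114.

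Msx2 read 22.2, 35.8, 24.7, 6.07 and 5.69 CPM in WT 1 to 5 and 8.12, 11.5, 4.71, 4.70 and 7.45 CPM in KI 1 to 5. The 3 EAS37 WT libraries stood above all others, and the EAS42 WT libraries lay within the KI range. Means were 18.9 ± 12.9 CPM (WT) and 7.29 ± 2.81 CPM (KI; SD, n = 5 each), and the log2 fold change of -1.37 ± 0.52 (SE) did not pass (edgeR adjusted p = 0.0684). It passed in edgeR without WT 4 (adjusted p = 0.0362) and without WT 5 (adjusted p = 0.0329), and without WT 2 the estimate was -1.01 (adjusted p = 0.151). The log2 CPM of Msx2 minus that of Msx1 differed by 0.08 between the genotypes (exact two-sided permutation test, p = 0.881, adjusted over 3 pairs p = 0.881).

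Foxn1, the factor mutated in nude mice, read 11.03, 37.7, 12.1, 7.43 and 7.89 CPM in WT 1 to 5 and 12.8, 18.9, 7.89, 7.53 and 7.91 CPM in KI 1 to 5. WT 2 was far above the rest, and the EAS42 libraries of both genotypes were nearly level, all below every EAS37 library. In edgeR the genotypes differed by -0.47 ± 0.48 (log2, SE) with an adjusted p of 0.486, which does not pass. Without WT 2 the estimate turned to 0.19 (adjusted p = 0.656), so the lower KI mean rests on that library.

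Hoxc13, which binds hair keratin promoters, read 47.4, 99.9, 52.5, 20.1 and 20.9 CPM in WT 1 to 5 and 58.5, 55.2, 21.6, 22.9 and 18.8 CPM in KI 1 to 5. Every EAS37 library of either genotype lay above every EAS42 library. In edgeR the genotypes differed by -0.44 ± 0.51 (log2, SE) with an adjusted p of 0.535, which does not pass. Without WT 2 the estimate was 0.00 (adjusted p = 0.994). Foxn1 minus Hoxc13 in log2 CPM differed by 0.09 between KI and WT (exact two-sided permutation test, p = 0.825, adjusted over 3 pairs p = 0.881).

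Dlx3, a homeobox gene of the hair shaft and inner root sheath, read 31.3, 76.8, 39.6, 24.8 and 19.1 CPM in WT 1 to 5 and 32.1, 38.02, 16.96, 19.05 and 15.5 CPM in KI 1 to 5. As in Hoxc13, the EAS37 libraries were higher than the EAS42 libraries in both genotypes, and the genotypes overlap. In edgeR the genotypes differed by -0.65 ± 0.40 (log2, SE) with an adjusted p of 0.230, which does not pass. Without WT 2 the estimate was -0.24 (adjusted p = 0.592).

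The contrast of genotypes was then taken within each prefix, from 1 edgeR model with an interaction. In EAS37, 5 of 9 genes were called lower (Lef1, Msx1, Msx2, Gli1 and Ptch1), where 18.4% of all genes tested were. In EAS42, 3 of 9 were called lower (Lef1, Gli1 and Ptch1), where 7.13% of all genes tested were. Lef1 fell by 1.83 on the log2 scale in EAS37 (adjusted p = 0.0112) and by 1.66 in EAS42 (adjusted p = 0.0247). Gli1 fell by 1.60 (adjusted p = 0.00560) and by 1.61 (adjusted p = 0.0104). Ptch1 fell by 0.81 (adjusted p = 0.0134) and by 1.17 (adjusted p = 0.00649). The receptor, its downstream factor and the beta-catenin partner thus passed in both sets of animals.

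Msx2 fell by 1.49 on the log2 scale in EAS37 (edgeR adjusted p = 0.00275), from 27.6 ± 7.20 CPM (SD, n = 3) to 9.80 ± 2.36 CPM (SD, n = 2). In EAS42 its log2 fold change was -0.07 (adjusted p = 0.890), from 5.88 ± 0.269 CPM (SD, n = 2) to 5.62 ± 1.59 CPM (SD, n = 3). The difference of these effects was 1.42 ± 0.39 (SE), with an unadjusted p of 0.00417 and an edgeR adjusted p of 0.102, so it did not pass. Msx1 fell by 1.47 in EAS37 (edgeR adjusted p = 0.0184), and its log2 fold change in EAS42 was -0.76 (adjusted p = 0.211). For the interaction, edgeR and limma-voom each called 0 of 9 genes, where edgeR called 0.866% of all genes tested, and 1 of 9, Msx2, had an unadjusted edgeR p under 0.05, where 17.7% of all genes tested did. In EAS42 Foxn1 (log2 fold change 0.02, adjusted p = 0.982) and Hoxc13 (0.04, adjusted p = 0.941) had estimates near 0.

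**Figure D2:**
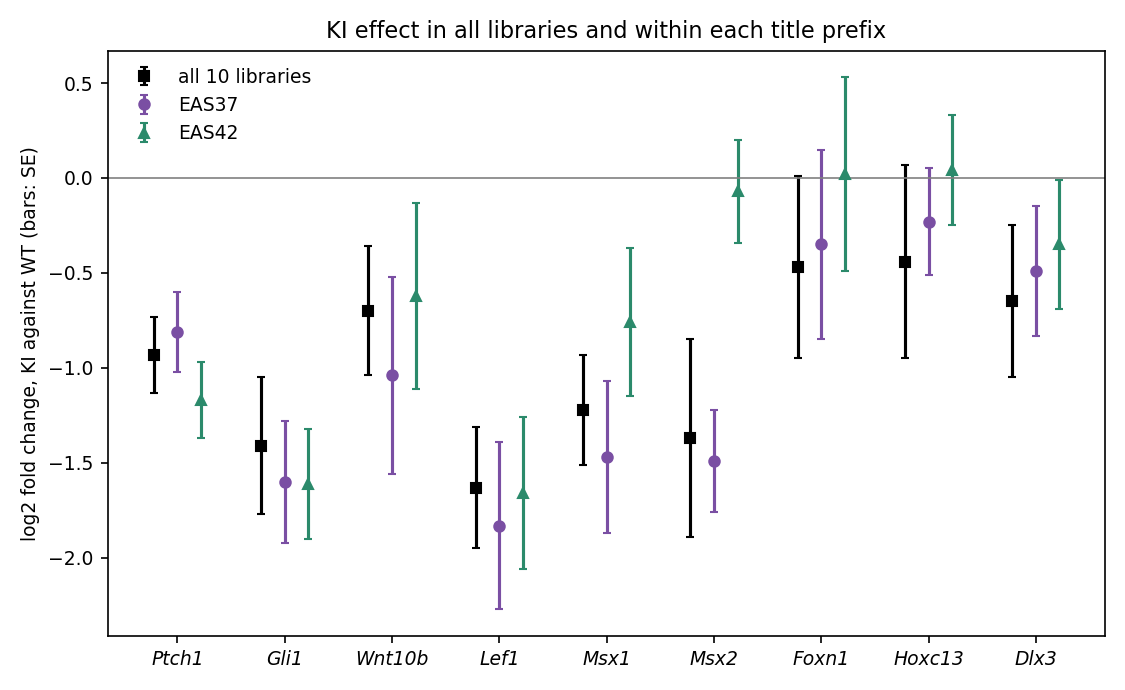
Log2 fold change of KI against WT (vertical axis) with its standard error for the 9 tested genes, from all 10 libraries (black squares) and from each title prefix (purple circles for EAS37, green triangles for EAS42). Gli1 is at -1.60 and -1.61 in the 2 prefixes, while Msx2 is at -1.49 and -0.07.

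A separate axis of variation ran between the prefixes. In an edgeR model with genotype and prefix, 3 of 9 genes were called lower in EAS42 than in EAS37, where 1.69% of all genes tested were, and 1 of 9 was called higher, where 0.785% were. The 3 were all regulators of hair differentiation: Hoxc13 (log2 fold change -1.56 ± 0.20 SE, adjusted p = 0.0165), Msx2 (-1.53 ± 0.31, adjusted p = 0.0403) and Dlx3 (-1.10 ± 0.23, adjusted p = 0.0416). Foxn1 had an estimate of -1.21 ± 0.34 that did not pass (adjusted p = 0.0956). Gli1 went the other way and was higher in EAS42 (0.97 ± 0.20, adjusted p = 0.0408), from 27.3 to 53.7 CPM in WT means and from 9.03 to 17.6 CPM in KI means. Lef1, Ptch1, Wnt10b and Msx1 did not pass, with 0.52, 0.44, 0.46 and -0.37. These calls rest on few libraries: 0 of the 9 genes were called without WT 4, without WT 5 or without KI 1. There was 1 call without WT 3, without KI 2 or without KI 3, there were 2 without KI 4 or without KI 5, and 5 without WT 2. Hoxc13 was called in all fits but the 3 with 0 calls, of the 10 that leave out 1 library. The share of all genes called was not counted in these 10 fits. Fewer calls among the 9 genes thus cannot be told from fewer calls over all genes.

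**Figure D3:**
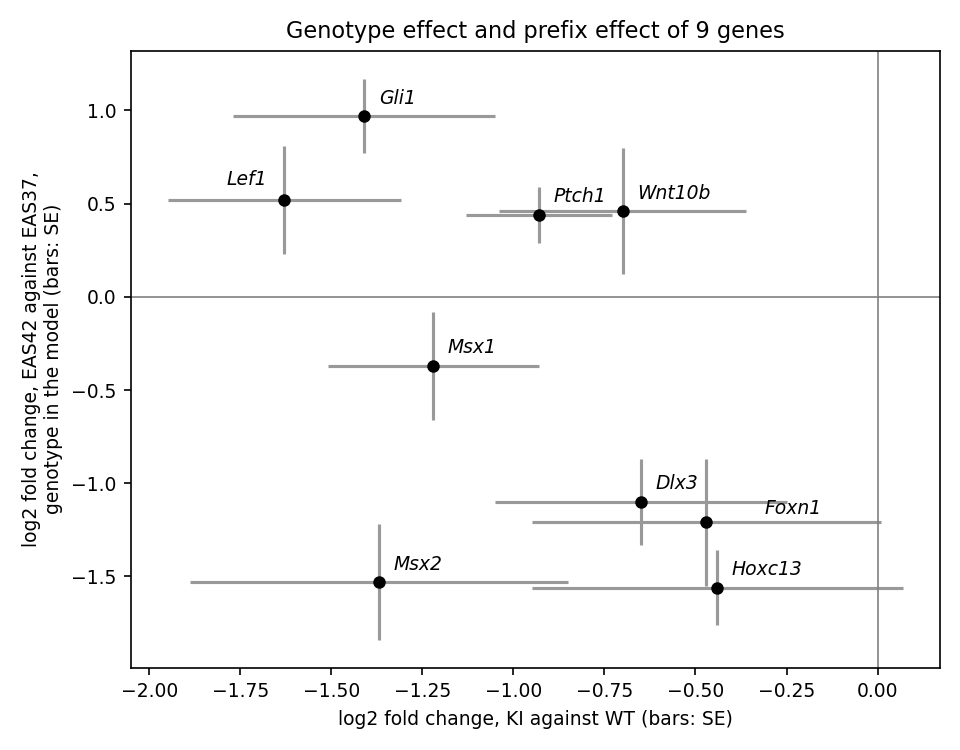
Log2 fold change of KI against WT (horizontal axis) and of EAS42 against EAS37 with genotype in the model (vertical axis) for the 9 tested genes, with standard errors as bars. Gli1 lies at -1.41 and 0.97, Hoxc13 at -0.44 and -1.56, and Msx2 is far from 0 on both axes at -1.37 and -1.53.

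Genes of the hair shaft and inner root sheath followed the prefix too. Of 25 measured, 12 were called lower in EAS42, where 1.69% of all genes tested were, and 0 higher, with a median log2 fold change of -6.43, where the median over all genes tested was 0.0018. Between genotypes only Selenbp1 of the 25 was called (log2 fold change -0.52, edgeR adjusted p = 0.0232), where 15.3% of all genes tested were called lower. The list median between genotypes was -1.91. Sums spread widely, from 68.8 to 8219 CPM in WT and 38.5 to 1757 CPM in KI, so few calls do not show equal levels. Their mean log2 CPM was 2.87 to 7.65 in the EAS37 libraries and -1.08 to 0.53 in the EAS42 libraries. With that mean as a covariate in edgeR, Hoxc13 and Foxn1 each had a log2 fold change between genotypes of 0.07 (adjusted p = 0.765 and 0.791). Both genes closely follow hair genes over the libraries. Pearson's r was 0.982 for Hoxc13 with Krtap6-3 and 0.974 for Foxn1 with Padi3, which is in the list. This fit therefore cannot tell a genotype difference in these 2 genes from one in the list. Lef1 (-1.72, adjusted p = 0.00199), Gli1 (-1.66, adjusted p = 0.000106), Ptch1 (-1.02, adjusted p = 0.000717) and Msx1 (-1.09, adjusted p = 0.0161) were still called lower in the same fit. Wnt10b (-0.89, adjusted p = 0.0303) was called as well. With this covariate 19.4% of all genes tested were called lower, against 15.3% without it.

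**Figure D4:**
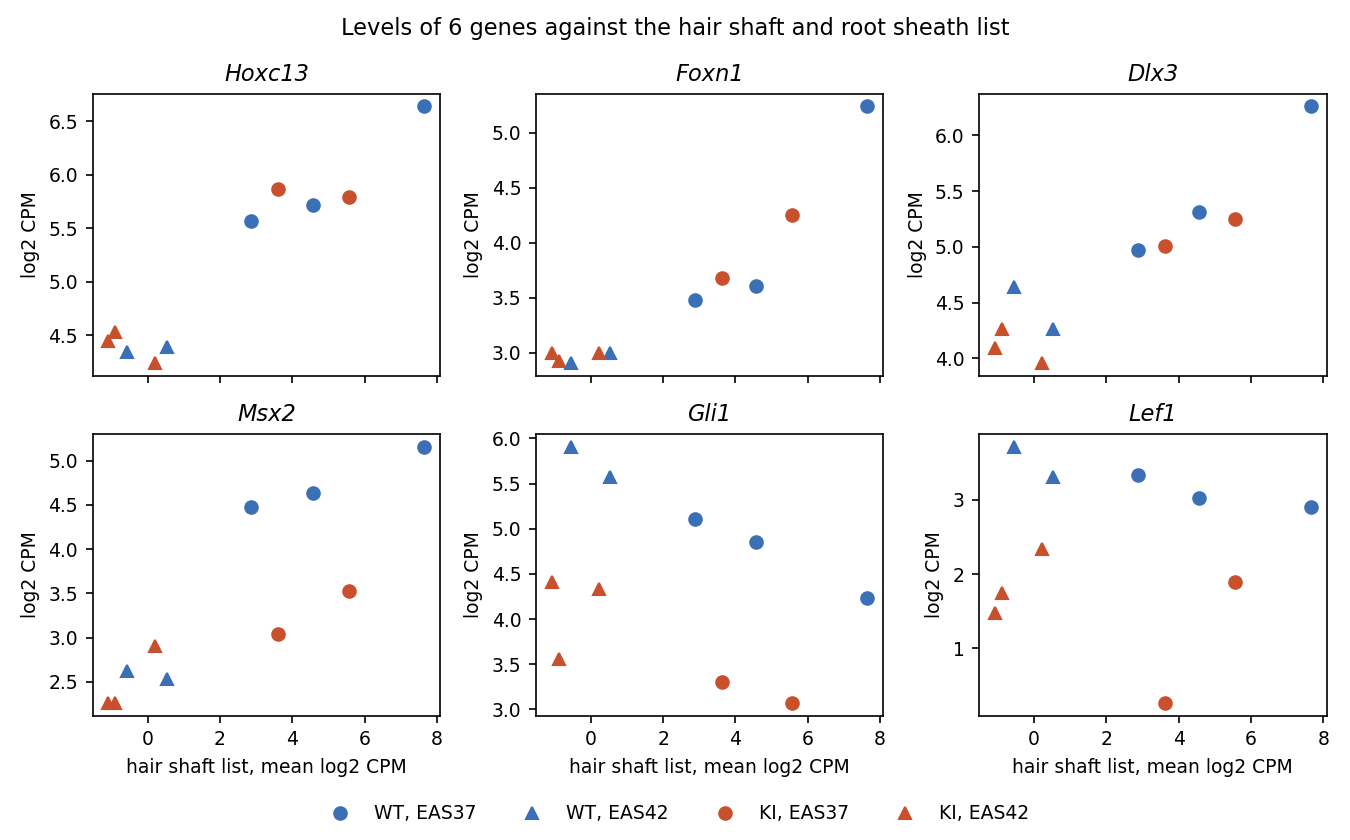
Log2 CPM of 6 genes (vertical axes) against the mean log2 CPM of 25 hair shaft and inner root sheath genes (horizontal axis) in each library, WT in blue and KI in red, circles for EAS37 and triangles for EAS42. WT 2 is the point at 7.65 on the horizontal axis; in Gli1 and Lef1 the blue points lie above the red ones at like hair shaft levels, and in Hoxc13 they do not.

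Per unit of transcript length, as TPM deposited by the authors, Hoxc13 had the highest mean of the 10 genes in both genotypes and Shh the lowest. These means pool both prefixes, and in WT 4 and WT 5 Gli1 (25.05 and 19.2 TPM) was above Hoxc13 (11.76 and 12.33 TPM). In WT the order was Hoxc13 (28.9 ± 19.2), Dlx3 (21.5 ± 12.6), Gli1 (15.8 ± 6.86), Msx2 (11.6 ± 7.85), Ptch1 (10.02 ± 3.06), Wnt10b (9.12 ± 3.74), Foxn1 (6.84 ± 5.61), Lef1 (5.41 ± 1.53), Msx1 (2.55 ± 0.821) and Shh (0.584 ± 0.572 TPM, SD, n = 5). Of these neighbours, only Lef1 and Msx1, and Msx1 and Shh, differed by more than the larger of their SDs. In KI the order was Hoxc13 (19.5 ± 9.63), Dlx3 (12.7 ± 4.74), Gli1 (5.92 ± 2.73), Wnt10b (5.27 ± 1.60), Ptch1 (5.11 ± 0.990), Foxn1 (4.62 ± 1.94), Msx2 (4.16 ± 1.48), Lef1 (1.80 ± 0.922), Msx1 (1.03 ± 0.339) and Shh (0.0320 ± 0.0370 TPM, SD, n = 5). There the gaps larger than the SD lay between Dlx3 and Gli1, Msx2 and Lef1, and Msx1 and Shh. Msx2 has a higher mean than Ptch1 in WT, yet in WT 4 and WT 5 it was at 3.64 and 3.37 TPM, below Ptch1 at 15.08 and 9.78 TPM. The deposited transcript length, weighted by isoform, ranged from 2370 to 2822 bases in Lef1 and from 3201 to 3841 in Gli1, so their reads were assigned to different mixes of isoforms, while it was the same in every library in Foxn1, Hoxc13, Dlx3 and Shh.

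The genes whose log2 CPM followed each member most closely were sought among 15674 genes with a mean of at least 1 CPM, by Pearson's r over the 10 libraries, which share genotype, prefix and depth. Hoxc13 was nearest to Krtap6-3 (0.982), a hair keratin associated protein gene, and Foxn1 to Ly6g6d (0.978) and Padi3 (0.974), the latter an enzyme that modifies hair proteins. Dlx3 was nearest to Gm11568 (0.980) and Msx2 to Gabre (0.980). Gli1 was nearest to Nt5c3b (0.985) and Ptch1 to Kat14 (0.993). The 10 genes themselves were left out of the search, so it does not show how closely they followed one another. Lef1 was nearest to Rhoj (0.979) and Gdnf (0.977), which were both called lower in KI (edgeR log2 fold changes -0.50 and -1.31, adjusted p = 0.0103 and 0.00764). Msx1 was nearest to Agpat1 (0.959) and Wnt10b to 2700054A10Rik (0.955).

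Of the other genes of the hedgehog pathway, 19 of 22 passed the filter, and 11 of these fell and 1 rose in KI, where 15.3% of all genes tested fell and 15.6% rose. The median log2 fold change was -0.61, where that of all genes tested was -0.0093. With the skeletal muscle level as a covariate 1 of the 19 was called in edgeR, where 0.802% of all genes tested were called lower and 1.69% higher. Scube3, which helps release the ligand, fell from 9.26 to 2.78 CPM (edgeR log2 fold change -1.74, adjusted p = 2.70e-04). Hhip, which binds hedgehog ligands and is a target of the pathway, fell from 4.05 to 1.11 CPM (-1.88, adjusted p = 0.00177). The ciliary kinesin gene Kif7 fell from 17.5 to 8.39 CPM (-1.06, adjusted p = 0.00162). Every KI library lay below every WT library in these 3. Gpr161, a negative regulator of the pathway, was the one that rose, from 23.8 to 41.4 CPM (0.80, adjusted p = 0.00125). The ligand gene Dhh and the transducer gene Smo also fell (-1.38 and -0.39), while Ihh, with 48 counts in WT and 38 in KI, was below the filter.

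Among WNT ligands and their secretion machinery, 18 of 24 passed the filter, 5 fell and 1 rose, with a median log2 fold change of -0.35, against the same 15.3% and 15.6%. The 6 calls became 11 without WT 2, 2 without WT 3, 3 without KI 2 or without KI 4, 2 in EAS37 alone, 11 in DESeq2 and 1 with the muscle covariate. Over all genes tested, the shares called lower in these fits were 14.3%, 11.8%, 11.1%, 10.5%, 13.4%, 15.2% and 0.802%, in that order. Those called higher were 15%, 12.6%, 11%, 12.5%, 15%, 15.1% and 1.69%. Porcn, the enzyme that lipidates WNTs, rose from 11.9 to 57.9 CPM (2.29, edgeR adjusted p = 5.72e-05), with no overlap between groups. Wnt3a fell from 7.70 to 2.92 CPM (-1.40, adjusted p = 0.00747), and the potentiator Rspo1 from 5.30 to 3.43 CPM (-0.63, adjusted p = 0.0214). The carrier gene Wls fell from 130.2 to 111 CPM (-0.23, adjusted p = 0.0383).

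Of the WNT receptors all 18 passed the filter, 7 fell, where 15.3% of all genes tested did, and 0 rose, with a median log2 fold change of -0.35. There were 4 calls without WT 1 or without KI 4, 3 in EAS42 alone and 1 with the muscle covariate. Over all genes tested, 11.6%, 10.5%, 7.26% and 0.802% were called lower in these fits, in that order, and 12.2%, 12.5%, 6.68% and 1.69% higher. Fzd1 fell from 140.3 to 89.7 CPM and Fzd4 from 121 to 64.4 CPM (-0.64 and -0.90, edgeR adjusted p = 0.00203 and 0.00512). Of the secreted WNT antagonists 12 of 16 passed the filter, 3 fell (Sfrp4, Sfrp5 and Wif1, by 1.83, 1.58 and 2.01 on the log2 scale) and 1 rose (Sostdc1, by 0.68), with a median of -0.76. These 4 calls became 2 without WT 4, 7 in DESeq2 and 0 with the muscle covariate. In those fits 12%, 15.2% and 0.802% of all genes tested were called lower, and 13.1%, 15.1% and 1.69% higher. In the main fit, 3 of 12 lower is not far above the 15.3% of all genes.

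Of the transduction and feedback genes 22 of 23 passed the filter. Of these 6 fell and 1 rose, where 15.3% and 15.6% of all genes tested did, with a median log2 fold change of -0.23. With the muscle covariate 0 were called, where 0.802% of all genes tested were called lower and 1.69% higher. Notum, the secreted WNT deacylase and a target of the pathway, fell from 6.27 to 1.51 CPM (-2.06, edgeR adjusted p = 0.00359). Nkd1, a feedback inhibitor, fell from 15.6 to 5.18 CPM (-1.59, adjusted p = 0.00172). Axin2, the best known target, had a log2 fold change of -0.62 that did not pass (adjusted p = 0.0545).

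Hair follicle growth signals had 24 of 24 genes measured. Of these 11 fell, where 15.3% of all genes tested did, and 1 rose, with a median log2 fold change of -0.54. With the muscle covariate 1 was called, where 0.802% of all genes tested were called lower and 1.69% higher. Bmp4 fell from 30.1 to 8.73 CPM (-1.79, edgeR adjusted p = 0.00114) and Tgfb2 from 35.6 to 13.1 CPM (-1.44, adjusted p = 0.00552). The ectodysplasin gene Eda and its receptor genes Edar and Eda2r fell by 0.70, 1.67 and 0.97 on the log2 scale. The Notch ligand genes split, with Jag2 at -0.44 and Jag1 at 0.53. Other hair follicle transcription factors had 25 of 26 measured, with 6 lower and 3 higher and a median of -0.02, where 15.3% of all genes tested were lower and 15.6% higher. Calls numbered 5 without WT 1, without WT 3 or without KI 4, 16 with the prefix as a block, 17 with the hair shaft covariate and 3 with the muscle covariate. In the first 3 of these fits 11.6%, 11.8% and 10.5% of all genes tested were called lower, and 12.2%, 12.6% and 12.5% higher. With the prefix as a block 19.4% were lower and 18.9% higher, and with the hair shaft covariate 19.4% and 19%. With the muscle covariate the shares were 0.802% and 1.69%. Lhx2, a bulge stem cell factor, fell from 78.8 to 27.8 CPM (-1.50, adjusted p = 6.29e-04) and Cux1 from 102 to 55.03 CPM (-0.88, adjusted p = 0.00132), while Foxq1 and Egr2 rose (0.81 and 1.56, adjusted p = 0.00211 and 0.00322).

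**Figure D5:**
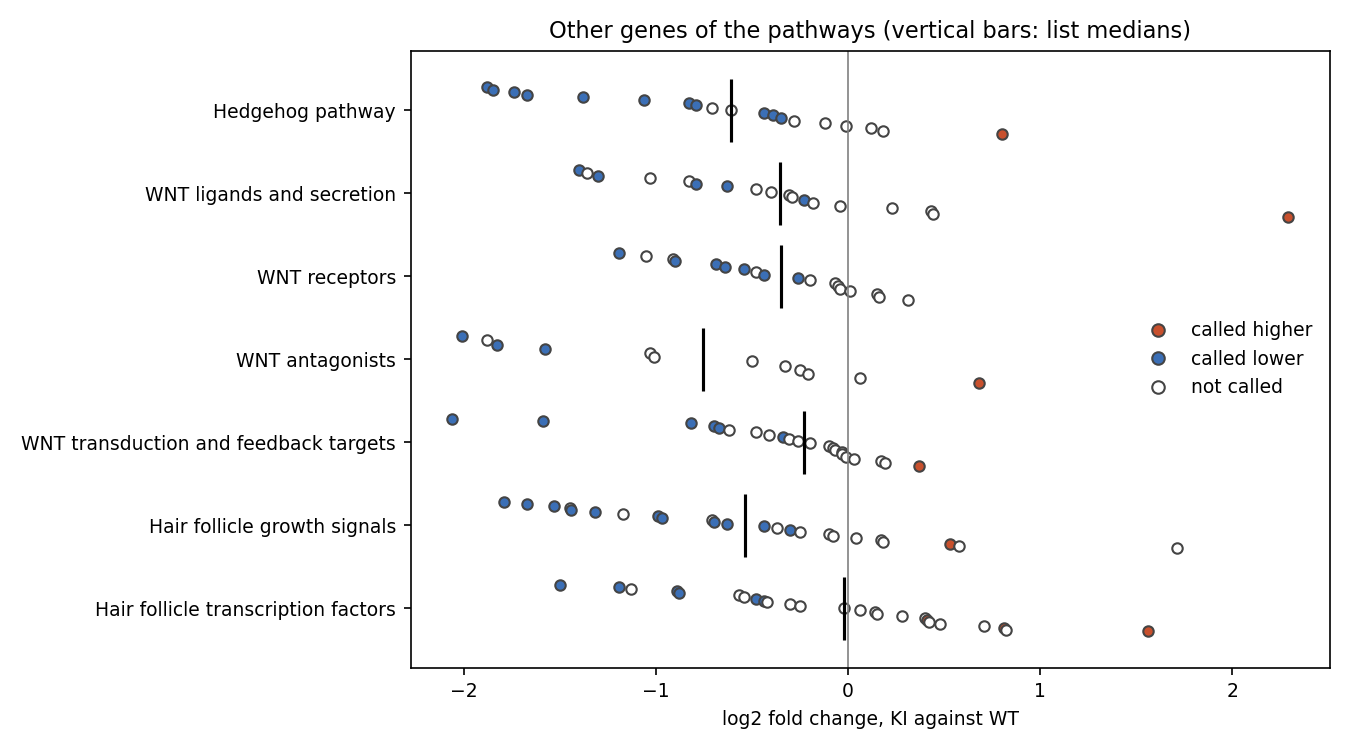
Log2 fold change of KI against WT (horizontal axis) for each measured gene of 7 lists, coloured where called higher (red) or lower (blue), with the list median as a vertical bar. Hedgehog genes have 11 blue points and 1 red, and the red point at 2.29 among WNT ligands and secretion is Porcn.

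Markers of other cells in and around the follicle are given against the 15.3% of all genes tested that fell and the 15.6% that rose. Of 15 dermal papilla markers 8 fell and 0 rose (median log2 fold change -0.82), with a summed level of 242 to 342 CPM in WT and 154 to 243 CPM in KI. Of 10 bulge stem cell genes 6 fell and 0 rose (median -0.89), with summed levels of 4939 to 7441 CPM in WT and 1905 to 3993 CPM in KI. Adipocyte genes had 8 of 12 lower (median -0.99), fibroblast genes 4 of 12 lower and 1 higher (median -0.57), and melanocyte genes 2 of 9 lower (median -0.84), the last being near the share of all genes. Interfollicular epidermis had 5 of 11 higher and 1 lower (median 0.20), and cell cycle genes 20 of 21 higher (median 1.34), with 358 to 569.8 CPM in WT and 698 to 1213 CPM in KI. No marker in these lists was at 0 in all 10 libraries. The part of these cells in the lower Lef1, Ptch1, Gli1 and Msx1 was not tested.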

How the data were processed

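Trizol RNA of skin was sequenced from stranded Illumina mRNA libraries, per the labels' protocols. GRCm38 and the tools DESeq2 1.14.1, featureCounts, FastQC, Picard 2.8.1 and STAR 2.5.2b are listed without roles, per the submitters' processing notes. The expected counts, TPM and lengths deposited by the authors are the columns of RSEM gene tables, per the file headers; not given in the sources used here are the version of RSEM, its annotation and its strand setting. FPKM deposited by the authors was not used. TPM values deposited by the authors describe levels between genes, and effective lengths entered an alternative only. Names come from GENCODE M21 (55227 of 55487 identifiers; the 260 others held 0.0113% of counts).

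Expected counts deposited by the authors (10.4% to 12.2% of values fractional) were rounded. Genes were kept by filterByExpr (minimum count 10, minimum total 15) and tested with edgeR 4.0.16 in R 4.3.3 (TMM, robust quasi-likelihood fit, Benjamini-Hochberg adjustment, threshold 0.05). Log2 CPM used a prior count of 2. Shh and 3 pairs of genes were compared by exact permutation over libraries. Replicate numbers follow accession order and pair nothing. Alternatives were DESeq2 1.42.0, limma-voom (limma 3.58.1), other normalizations, filters and prior counts, length offsets, a non-robust fit, the prefix as a block or alone, 2 covariates, and each library left out. Leaving out WT 2 and KI 2 together, limma-voom with the muscle covariate, and alternatives for Shh, the prefix and the interaction, were added after seeing the data. The tests were tried on simulated counts. The 10 genes and the 17 lists (7 of pathways, 10 of markers) were chosen with earlier results of these data known. Genes named are the 10 and the nearest to each tested gene by correlation, with the next nearest for Foxn1 and Lef1 only. The 3 nearest to each were sought, and the rest are not named. Also named are up to 4 of smallest p per pathway list, and others that a count singles out. Among these others are Axin2, Smo, Dhh, Ihh, Eda, Edar and Jag1, chosen after their values were seen. Coordinates are those of GRCm38, and intervals cover counting error only.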

Additional observations from a re-analysis of the deposited data

Results flagged for a closer look

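Foxn1 in WT 2 stood apart from the other WT libraries at 37.7 CPM, with the next highest at 12.1 CPM. The gap was 0.846 of the range of the 5 libraries, above the 95% limit of Dixon's test for 5 values (0.71). It was the 1 such case among 20 groups examined (10 genes in 2 genotypes), and chance gives about 1 in 20. The same library had the highest Hoxc13, Dlx3 and Msx2 and the highest summed hair shaft level (8219 CPM).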

How the results depend on the processing

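The count of genes called between the genotypes was 4, where 15.3% of all genes tested were called lower. It stayed within 3 to 6 in all alternatives but 1: with the skeletal muscle level as a covariate it was 0, where 0.802% were. The genes tested were not the same in every alternative, so these counts are not strictly alike. Leaving out 1 library gave 4 to 5, where 10.2% to 16% of all genes tested were called lower. DESeq2 gave 6, adding Msx2 and Shh, where 15.2% were. The filter at a minimum count of 50 gave 3, since Msx1 was not tested there, where 17.8% were. EAS42 alone gave 4 with Shh and without Msx1 (log2 fold change -0.77, edgeR adjusted p = 0.288), where 7.26% were. Lef1, Gli1 and Ptch1 were each called in 22 of 23 alternatives. No call reversed, while the uncalled Foxn1 ran from -1 to 0.19 and Hoxc13 from -1.16 to 0.07.

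The count called between prefixes was 4, or 3 by limma-voom, and leaving out 1 library gave 0 to 5. The share of all genes called between prefixes was not counted in these alternatives. The interaction count was 0 throughout. For Shh, leaving out 1 library gave differences from -3.07 to -1.84, and a prior count of 0.5 gave -3.04. Gli1 minus Ptch1 ran from -0.70 (without KI 3, exact permutation p = 0.0476) to -0.39 when 1 library was left out. Calls per list moved by over 1.5 times in up to 7 of 23 alternatives. WNT ligands and secretion had 1 to 11 calls around 6, and hair follicle transcription factors 3 to 17 around 9. Every list fell to 3 or fewer with the muscle covariate, where 0.802% of all genes tested were called lower and 1.69% higher. Over the alternatives, the share of all genes tested that was called lower ran from 0.802% to 19.4%. The causes were not tested. No paired analysis was possible because replicate numbers are accession order only. Shh, with 7 counts in KI, and Msx1, with 19 to 47 counts per KI library, rest on few reads.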
